A study of Rattus norvegicus with 9 samples.

Results

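Rat aortic smooth muscle cells that overexpressed cathepsin D (CTSD) and received advanced glycation end products (AGEs) were compared with empty-vector cells given bovine serum albumin (BSA), the protein that serves as control for AGEs. RNA-seq libraries from cultured vascular smooth muscle cells of the rat thoracic aorta formed 3 groups of 3. The BSA group carried the empty vector and received BSA. The AGEs group carried the same empty vector and received AGEs, proteins modified by sugars, at 200 µg/mL for 24 h. The CTSD group was transfected to overexpress CTSD and received the same AGEs. CTSD and BSA libraries thus differed in the AGEs and in the CTSD at once, and their shares in a difference cannot be told apart within this comparison, which the study's text does not list. The values of the AGEs group therefore stand beside it, and comparisons that share a group share its libraries. The study's cells without a vector were not analysed here.

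The members were all genes with at least 1 FPKM (fragments per kilobase of a gene's model, relative to all fragments in genes) in at least 3 of the 9 libraries, which left 8532 of the 32792 genes in the table. Of these, 5 reached 1 FPKM in the 3 CTSD libraries and in no other, and 6 did so in the 3 BSA libraries and in no other, so such genes entered through the group where they were high. Libraries held between 4492760 and 5342078 fragments in genes. Pearson correlations of log2(FPKM + 1) were 0.9889 to 0.9894 among BSA libraries, 0.9897 to 0.9903 among CTSD libraries and 0.9777 to 0.9816 between the groups. Nothing in the labels states that libraries within a group were separate cultures, and p-values then reflect only the spread among these libraries, which may be technical. Of the defining smooth muscle markers, Acta2 and Tagln were present, while Myh11 stayed under 0.2 FPKM, Cnn1 reached 1.34 FPKM in 1 library and Myocd was listed at 0 in all 9. Endothelial and epithelial markers gave no tested gene, and the endothelial genes Cdh5 and Kdr and the leukocyte gene Ptprc were at 0 in every library. A 0 in this table does not show absence. Tpi1, Hsp90aa1 and Gpx4, of the glycolysis, chaperone and oxidative stress lists, were also at 0 in all 9.

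Cathepsin D is an aspartic protease that works in lysosomes, where it degrades proteins delivered by endocytosis and autophagy. AGEs form when sugars react with proteins, and in the vessel wall they accumulate with diabetes and age. Vascular smooth muscle cells can shift between a contractile state, rich in smooth muscle actin and its partners, and a synthetic state that divides and secretes matrix. Thioredoxin-interacting protein, encoded by Txnip, restrains glucose uptake, and O-GlcNAc transferase, encoded by Ogt, attaches a sugar made from glucose to nuclear and cytosolic proteins.

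Relative to the BSA group, CTSD cells with AGEs had more mRNA for smooth muscle actin, a basement membrane collagen and enzymes of cholesterol synthesis, and less for many splicing factors, translation initiation factors and tRNA synthetases. Calls required an adjusted p under 0.05 (Benjamini-Hochberg) in a limma fit to log2(FPKM + 1) of all 9 libraries, and log2 differences below are CTSD minus BSA unless another pair is named. The fit called 2782 genes (32.6% of those tested), 1394 higher (16.3%) and 1388 lower (16.3%). Most differences were small, with a median size of 0.42 on the log2 scale among called genes. With a fold of at least 1.5 added, 673 genes (7.89%) passed, of which 190 were higher (2.23%) and 483 lower (5.66%). At 2-fold the counts were 15 higher and 48 lower. In 4164 genes (48.8%) the 3 CTSD values did not overlap the 3 BSA values. The same fit called 1277 genes (15%) for AGEs against BSA and 2617 (30.7%) for CTSD against AGEs.

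Genes called higher had shorter gene models, with a median of 1862 bases against 2246 for genes called lower and 2068 for those not called. Median FPKM in the BSA group was 41.7 for genes called higher, 31.6 for genes called lower and 8.14 for those not called. Called genes thus had higher levels, and shares of gene lists were not compared with genes of matched level. Spearman's correlation of the difference with length across genes, which are not independent replicates, was -0.133. Between 2 libraries of the same group it ranged from -0.149 to -0.00881. A fit with the length trend removed called 2796 genes, 1435 higher and 1361 lower.

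Ctsd (ENSRNOG00000020206, deposited position chromosome 1, 215541542 to 215553451) had 11.7, 14.6 and 12.9 FPKM in the BSA libraries, 13.2, 14.8 and 13.7 in the AGEs libraries and 195, 199.7 and 203 in the CTSD libraries. The 3 CTSD libraries stood far above the other 6, which overlapped each other. Ctsd was 15.3-fold higher in CTSD than in BSA cells (log2 difference 3.84 ± 0.08 SE, limma adjusted p = 1.8e-09). A rise of Ctsd was set by the overexpression itself, and FPKM per gene do not separate vector transcripts from the cells' own. Permuting the 6 libraries in every way (exact test, two-sided) gave p = 0.1, the smallest it can give, for Ctsd, Txnip, Ogt and Acta2 alike.

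Txnip was higher and Ogt lower than with BSA in both groups that received AGEs. Txnip had 3.15, 3.59 and 3.88 FPKM with BSA, 11.5, 9.45 and 9.23 with AGEs and 11.4, 10.1 and 11.5 with CTSD. Both groups with AGEs lay above the BSA libraries and overlapped each other. The rise of Txnip from BSA to CTSD was 3.11-fold (1.40 ± 0.12 SE, limma adjusted p = 5.5e-05), and CTSD minus AGEs was 0.12 ± 0.12 SE (adjusted p = 0.514). Ogt had 19.3, 18.6 and 18.7 FPKM with BSA, 7.17, 6.13 and 8.78 with AGEs and 7.38, 8.77 and 6.75 with CTSD. Every library that received AGEs was below 9 FPKM, and the BSA libraries were all above 18 FPKM. Ogt fell by 1.21 ± 0.13 SE on the log2 scale (limma adjusted p = 0.000169), and CTSD minus AGEs was 0.05 ± 0.13 SE (adjusted p = 0.812).

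Tested genes of glucose sensing and of the pathway that makes the O-GlcNAc sugar donor numbered 11. Of these, 5 were lower (45.5%) and 1, Txnip, was higher (9.09%), against 16.3% each way over all genes. The median difference was -0.27 against 0.0047 over all genes tested. Gfpt1, which commits glucose to that pathway, had 12.5, 10.8 and 10.2 FPKM with BSA and 8.31, 7.83 and 6.55 with CTSD (-0.50 ± 0.14 SE, limma adjusted p = 0.023). Gnpnat1, an acetyltransferase of the same pathway, fell by 0.40 ± 0.10 SE (limma adjusted p = 0.0117). The count of 5 lower genes became 3 without BSA replicate 1, BSA replicate 2 or CTSD replicate 2 and 2 without CTSD replicate 3, and Gfpt1 was no longer called without BSA replicate 1 or CTSD replicate 3.

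**Figure D1:**
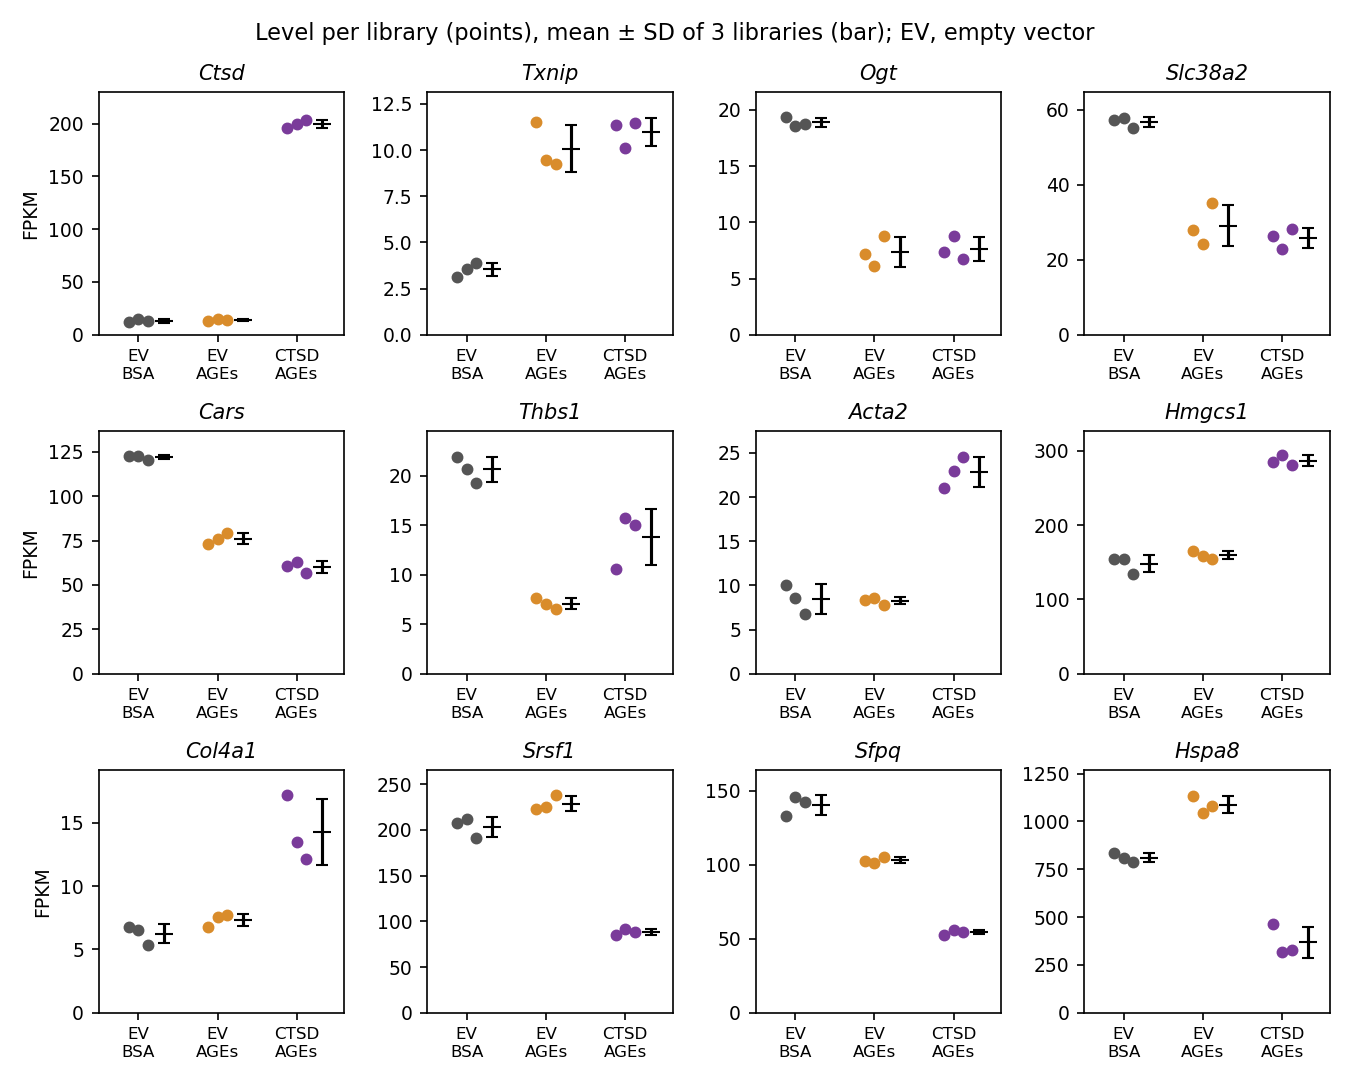
FPKM of 12 genes in each of the 9 libraries (points, by group: EV is empty vector), with mean ± SD of 3 libraries, each panel on its own linear axis from 0. Txnip, Ogt, Slc38a2 and Cars lie away from the BSA libraries in both groups with AGEs, while Ctsd, Acta2, Hmgcs1 and Col4a1 are high in the CTSD libraries.

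Among 14 tested genes of the smooth muscle contractile list, 6 were called higher (42.9%) and 1 lower (7.14%). Their median was 0.17 (AGEs minus BSA -0.10), and over all genes 16.3% were called each way. Acta2 (smooth muscle alpha-actin, the main thin filament protein of contractile cells) had 10.1, 8.59 and 6.72 FPKM with BSA, 8.38, 8.57 and 7.81 with AGEs and 21.0, 23.0 and 24.5 with CTSD. The CTSD libraries were all above the other 6, and BSA and AGEs libraries overlapped. Acta2 rose 2.70-fold (1.35 ± 0.13 SE, limma adjusted p = 8.97e-05). Its level in these cells was low in absolute terms, at a mean of 22.8 ± 1.73 FPKM (SD, n = 3) against 17388 ± 379 FPKM for Actb, the non-muscle beta-actin, both per kilobase. Tagln, the actin-binding protein transgelin, went from 14, 10.9 and 11.2 FPKM to 24.4, 23.3 and 19.2 (0.84 ± 0.16 SE, limma adjusted p = 0.00274). Csrp1, a LIM protein of actin filaments, rose by 0.47 ± 0.10 SE and Tpm1, a tropomyosin, by 0.35 ± 0.08 SE. Tpm2 had 109, 111 and 98.2 FPKM with BSA, 79.5, 83.8 and 77.5 with AGEs and 131, 133 and 132 with CTSD. The 3 groups did not overlap, with AGEs lowest and CTSD highest (CTSD minus BSA 0.31 ± 0.06 SE, limma adjusted p = 0.00228). Cald1, not called, had 21.1, 19.9 and 22 FPKM with BSA, 17.9, 16.1 and 24.9 with AGEs and 16.4, 17.5 and 15.8 with CTSD. Its CTSD libraries were all below its BSA libraries. The 1 member called lower was Flna, the actin cross-linker filamin A, by 0.24 ± 0.04 SE. That count of 1 lower gene became 2 without AGEs replicate 3, with the 2 groups alone or with voom on fragments, and 0 with the length trend removed.

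The RefSeq promoter of Acta2 (GRCr8, chr1:241172504-241172753, minus strand, the 250 bases before the start) is shown because Acta2 had the largest rise of the list. The capitals mark CCCTATATGG and CCTTGTTTGG, both similar to the CArG box known as the site of serum response factor, at 134 and 84 bases before the start.
Acta2: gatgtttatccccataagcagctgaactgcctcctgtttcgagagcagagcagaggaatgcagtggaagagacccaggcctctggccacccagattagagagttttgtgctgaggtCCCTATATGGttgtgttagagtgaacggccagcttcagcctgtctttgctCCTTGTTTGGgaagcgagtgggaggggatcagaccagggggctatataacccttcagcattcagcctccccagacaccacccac
Sequences of this form (CC, then 6 bases of which at least 5 were A or T, then GG, which reads the same form on either strand) were found in 7.66% of the 6242 members with a RefSeq promoter. A match describes the letters only. Srf, which encodes the factor, had 69.9, 73.3 and 68.8 FPKM with BSA and 82.1, 78.4 and 79.8 with CTSD, a called rise of 0.18 on the log2 scale.

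Genes of the non-muscle actin and myosin apparatus went both ways, with 12 of 29 higher (41.4%) and 7 lower (24.1%). These shares stand against 16.3% each way over all genes. The rises included Actb at 0.27 ± 0.04 SE and Myl12b, a regulatory light chain of non-muscle myosin, at 0.39 ± 0.07 SE. Actr2 and Actr3, core subunits of the Arp2/3 complex that starts branched actin filaments, fell by 0.48 ± 0.07 SE and 0.39 ± 0.06 SE. Rock2, a kinase that activates myosin, had 14.7, 13.5 and 20.1 FPKM with BSA, 5.75, 5.28 and 12.6 with AGEs and 7.09, 8.27 and 8.06 with CTSD (-0.94 ± 0.26 SE, limma adjusted p = 0.0197). The call of Rock2 was lost without BSA replicate 3 or CTSD replicate 1.

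Of 10 tested genes of the synthetic and matricellular list, 3 rose (30%) and 2 fell (20%), with a median of -0.05. Over all genes the shares were 16.3% each way. Thbs1, the secreted glycoprotein thrombospondin-1, had 21.9, 20.7 and 19.3 FPKM with BSA, 7.67, 7.03 and 6.56 with AGEs and 10.5, 15.7 and 15.1 with CTSD. The CTSD libraries lay between the other groups without overlap. Thbs1 fell by 0.57 ± 0.14 SE relative to BSA (limma adjusted p = 0.0115) and was higher by 0.85 ± 0.14 SE relative to AGEs (adjusted p = 0.00117). Myh10, a non-muscle myosin heavy chain of the synthetic state, fell by 0.52 ± 0.10 SE, with 29.4, 30.7 and 31.3 FPKM in BSA and 19.8, 21.6 and 21.6 in CTSD libraries. Sparc, a matrix-binding glycoprotein, rose by 0.34 ± 0.05 SE and Ccn1, a matricellular protein, by 0.22 ± 0.05 SE. Klf4, a transcription factor of the synthetic state, had 38.6 ± 0.535 FPKM with BSA and 38.7 ± 5.46 with CTSD (SD, n = 3; difference -0.01 ± 0.11 SE) and was not called. The count of 2 lower genes became 4 without BSA replicate 1 or AGEs replicate 3, and also with the 2 groups fitted alone or with voom on fragments.

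Collagens and matrix enzymes had 6 of 14 tested members higher (42.9%) and none lower, against 16.3% each way over all genes. Their median was 0.25, and for AGEs minus BSA it was -0.24. Col4a1, a chain of the basement membrane collagen, had 6.81, 6.52 and 5.38 FPKM with BSA, 6.80, 7.55 and 7.71 with AGEs and 17.2, 13.5 and 12.1 with CTSD. All CTSD libraries were above the other 6. Col4a1 rose 2.29-fold (1.07 ± 0.14 SE, limma adjusted p = 0.000434). Timp2, an inhibitor of matrix metalloproteinases, rose by 0.57 ± 0.05 SE and Loxl1, which cross-links elastin, by 0.40 ± 0.07 SE. Col5a1, a chain of a fibril collagen, had 35.8, 37.5 and 35.5 FPKM with BSA, 23.5, 24.2 and 25.2 with AGEs and 44.7, 49.3 and 48.8 with CTSD (CTSD minus BSA 0.38 ± 0.06 SE, limma adjusted p = 0.00171). Its 3 groups did not overlap.

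Cholesterol synthesis and uptake had 12 of 19 tested genes higher (63.2%) and none lower, against 16.3% each way over all genes. Their median was 0.41, and for AGEs minus BSA it was -0.11. Hmgcs1, the synthase that makes HMG-CoA for sterols, had 155, 154 and 135 FPKM with BSA, 166, 158 and 155 with AGEs and 285, 294 and 281 with CTSD. The CTSD libraries were all above 280 FPKM and the other 6 all below 170 FPKM. Hmgcs1 rose 1.94-fold (0.95 ± 0.06 SE, limma adjusted p = 6.56e-06), and CTSD minus AGEs was 0.84 ± 0.06 SE. Insig1, which holds the sterol regulator SREBP in the endoplasmic reticulum, had 7.65, 9.20 and 8.37 FPKM with BSA and 18.1, 18.6 and 13.4 with CTSD (0.90 ± 0.16 SE, limma adjusted p = 0.00215). Mvd, a decarboxylase of the mevalonate steps, rose by 0.88 ± 0.14 SE, and Lss, which closes the sterol rings, by 0.85 ± 0.12 SE. Cyp51 at 0.09, Msmo1 at 0.11 and Idi1 at -0.04, enzymes of the same pathway, were not called.

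Promoters of Hmgcs1 (GRCr8, chr2:53382054-53382303, plus strand) and Insig1 (chr4:8057770-8058019, minus strand) are shown because these genes rose most in the list. The capitals mark ATTGG, the reverse complement of CCAAT, the box bound by NF-Y.
Hmgcs1: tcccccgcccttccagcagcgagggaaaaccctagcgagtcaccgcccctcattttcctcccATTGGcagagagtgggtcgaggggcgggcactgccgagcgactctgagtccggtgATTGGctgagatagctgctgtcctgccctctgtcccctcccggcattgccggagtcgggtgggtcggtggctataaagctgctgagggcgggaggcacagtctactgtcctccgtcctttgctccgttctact
Insig1: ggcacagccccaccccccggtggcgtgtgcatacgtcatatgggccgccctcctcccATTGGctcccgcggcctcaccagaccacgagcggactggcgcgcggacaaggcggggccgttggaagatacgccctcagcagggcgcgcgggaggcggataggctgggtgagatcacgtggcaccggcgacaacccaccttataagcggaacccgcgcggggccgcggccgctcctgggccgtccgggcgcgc
On either strand CCAAT was found in 10 of 13 cholesterol genes with a RefSeq promoter (76.9%) and in 37.6% of members. The sterol element TCACNCCAC was found in 0 of the 13 and in 0.961% of members. CACGTG, a box of basic helix-loop-helix factors, was found in 2 of the 13 (15.4%) and in 9.34% of members. The motifs were chosen after the values were seen, and no test was made.

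Fatty acid synthesis had 4 of 12 tested genes higher (33.3%) and 1 lower (8.33%), against 16.3% each way over all genes. Their median was 0.19. Acss2, which makes acetyl-CoA from acetate, had 76.2, 85.8 and 80.2 FPKM with BSA, 44.1, 45.0 and 40.3 with AGEs and 114, 121 and 119 with CTSD. No groups overlapped, and Acss2 was lowest with AGEs and highest with CTSD (CTSD minus BSA 0.54 ± 0.06 SE, limma adjusted p = 0.0002). Scd2, a desaturase, rose by 0.49 ± 0.09 SE and Acly, which makes acetyl-CoA from citrate, by 0.44 ± 0.04 SE. The call of Fasn, the fatty acid synthase, at 0.37 ± 0.13 SE (limma adjusted p = 0.0499) was lost in 13 of 17 alternatives, 8 of them without any 1 library other than AGEs replicate 3. Pparg, a nuclear receptor of lipid metabolism and an adipocyte marker, had 258, 258 and 241 FPKM with BSA and 387, 387 and 408 with CTSD (0.64 ± 0.05 SE, limma adjusted p = 1.65e-05). Of the other adipocyte markers, Cidec had 3.7 to 6.37 FPKM over all libraries and was not called, while Adipoq, Fabp4 and Lep were at 0 in every library.

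**Figure D2:**
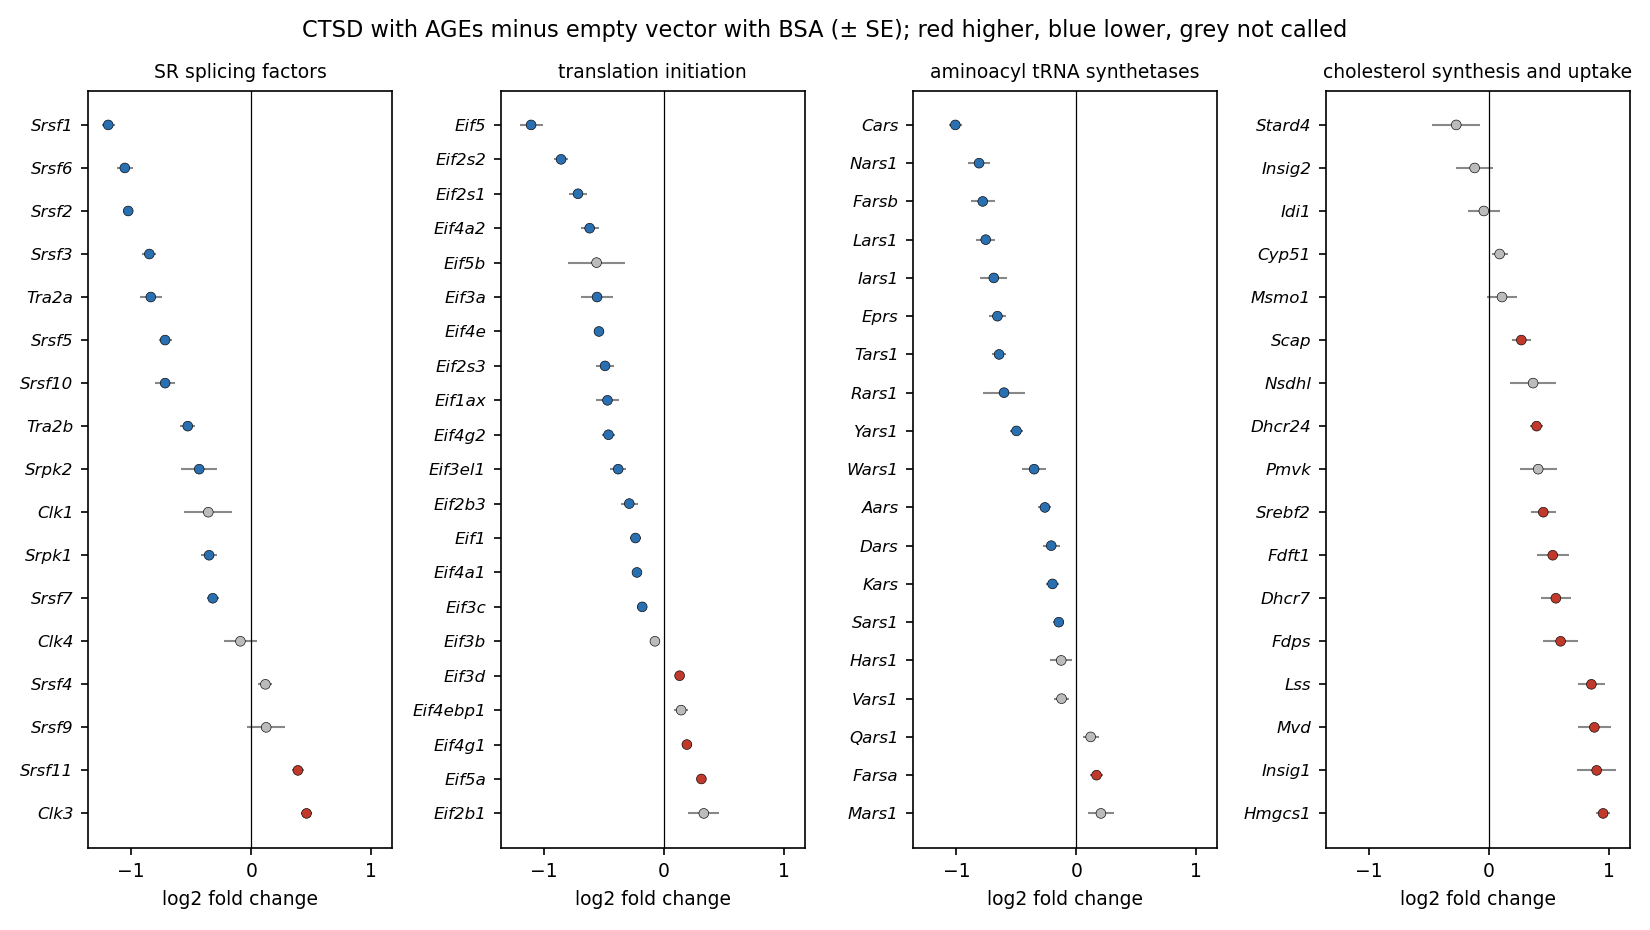
Log2 difference of CTSD with AGEs from empty vector with BSA (± SE) for tested members of 4 gene lists (a few members of the cholesterol list are not shown), red for called higher, blue for called lower and grey for not called. In the lists of SR splicing factors, translation initiation and tRNA synthetases 11, 14 and 14 members were lower, and in the cholesterol list none was lower.

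Of 17 tested SR splicing factors and their kinases, which select splice sites, 11 fell (64.7%) and 2 rose (11.8%). Their median was -0.43 (AGEs minus BSA 0.07), and over all genes 16.3% were called each way. Srsf1 had 207, 211 and 191 FPKM with BSA, 223, 225 and 238 with AGEs and 84.8, 91.4 and 88.8 with CTSD. The CTSD libraries were below 95 FPKM and the other 6 above 190 FPKM. Srsf1 was 2.30-fold lower (-1.19 ± 0.05 SE, limma adjusted p = 8.14e-07). Srsf2 had 398, 413 and 402 FPKM with BSA, 345, 350.2 and 334 with AGEs and 189, 205 and 201 with CTSD (-1.03 ± 0.04 SE, limma adjusted p = 4.58e-07). Srsf6 fell by 1.05 ± 0.06 SE and Srsf3 by 0.85 ± 0.06 SE. The members that rose were Srsf11 at 0.39 ± 0.05 SE and Clk3, a kinase of SR proteins, at 0.46 ± 0.04 SE. These mRNAs are known to carry ultraconserved exons that regulate their own decay, and FPKM per gene do not separate isoforms.

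Of 20 tested heterogeneous nuclear ribonucleoproteins and related factors, RNA-binding proteins that package nascent transcripts, 13 fell (65%) and 5 rose (25%). Their median was -0.24, and over all genes 16.3% were called each way. After quantile normalization 3 rose. Hnrnpdl had 142, 129 and 125 FPKM with BSA and 64.8, 75.3 and 77.6 with CTSD (-0.86 ± 0.08 SE, limma adjusted p = 6.12e-05). Ptbp2, a splicing repressor, fell by 0.82 ± 0.18 SE and Syncrip by 0.65 ± 0.10 SE. Hnrnph3, 1 of the 5, was called at 1.27 ± 0.19 SE, with 0.465, 0.508 and 0.183 FPKM in BSA and 2.35, 2.29 and 2.33 in CTSD libraries. It passed the filter through the CTSD libraries, where it was high, and 1 AGEs library, so its call carries no weight as a rise. Sfpq and Pspc1, partner proteins of nuclear paraspeckles, were both among the 12 largest falls. Sfpq had 133, 146 and 142 FPKM with BSA, 103, 101 and 105 with AGEs and 52.8, 56.1 and 54.8 with CTSD. The 3 groups were separate, in that order. Sfpq was 2.57-fold lower with CTSD than with BSA (-1.35 ± 0.05 SE, limma adjusted p = 3.4e-07), and Pspc1 was 2.23-fold lower (-1.13 ± 0.09 SE, adjusted p = 4.25e-05).

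Nuclear pore and transport genes had 14 of 32 tested members lower (43.8%) and 2 higher (6.25%), with a median of -0.17. These shares stand against 16.3% each way over all genes. Cse1l, which recycles importin alpha, had 131, 126 and 101 FPKM with BSA, 117, 102 and 123 with AGEs and 60.1, 60.5 and 61.4 with CTSD (-0.95 ± 0.10 SE, limma adjusted p = 0.000112). The import receptors Ipo7 and Tnpo1 fell by 0.85 ± 0.19 SE and 0.67 ± 0.07 SE, and Xpo4, an exportin, by 0.76 ± 0.16 SE. The 2 higher calls, Nup62 and Nup93, became 0 without BSA replicate 1, CTSD replicate 1 or CTSD replicate 3 and 1 without BSA replicate 2 or with no filter.

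Translation initiation had 14 of 21 tested factors lower (66.7%) and 3 higher (14.3%), against 16.3% each way over all genes. Their median was -0.38, and for AGEs minus BSA it was 0.01. Eif5, which triggers GTP hydrolysis on the initiating ribosome, had 74.9, 76.6 and 81.4 FPKM with BSA, 74.8, 69.2 and 90.1 with AGEs and 32.4, 38.3 and 36.1 with CTSD. BSA and AGEs libraries overlapped and the CTSD libraries were all below them. Eif5 was 2.18-fold lower (-1.11 ± 0.10 SE, limma adjusted p = 5.06e-05). Eif2s2 and Eif2s1, subunits of the factor that delivers the initiator tRNA, fell by 0.86 ± 0.06 SE and 0.72 ± 0.07 SE. Eif4a2, an RNA helicase of cap binding, fell by 0.62 ± 0.07 SE. Abce1, a recycling factor of ribosomes, had 34.2, 29.8 and 34.8 FPKM with BSA and 15.4, 13.1 and 15.1 with CTSD (-1.13 ± 0.16 SE, limma adjusted p = 0.000615). Ribosomal protein genes had 6 of 30 higher and 3 lower with a median of 0.04, that is 20% and 10% against 16.3% each way over all genes. Rps18, Rps16 and Rplp1 were called at 0.43 ± 0.12 SE, 0.40 ± 0.12 SE and 0.34 ± 0.09 SE, and each lost the call without CTSD replicate 1, as Rps18 did without CTSD replicate 2, Rps16 without BSA replicate 2 or 3 and Rplp1 without BSA replicate 2. The 6 higher calls became 3 without BSA replicate 2 or 3 and 1 without CTSD replicate 1, and the 3 lower became 1 without BSA replicate 1, AGEs replicate 1, CTSD replicate 2 or CTSD replicate 3 and 5 with the length trend removed.

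Aminoacyl tRNA synthetases, which load amino acids onto tRNAs, had 14 of 19 tested members lower (73.7%) and 1 higher (5.26%). Their median was -0.35 (AGEs minus BSA -0.27), and over all genes 16.3% were called each way. Cars, the cysteine enzyme, had 123, 123 and 121 FPKM with BSA, 72.9, 75.8 and 79.2 with AGEs and 60.6, 63.1 and 56.8 with CTSD. The groups did not overlap, with BSA highest and CTSD lowest. Cars was 2.03-fold lower with CTSD than with BSA (-1.01 ± 0.05 SE, limma adjusted p = 3.49e-06). Nars1, Farsb and Lars1 fell by 0.81 ± 0.09 SE, 0.78 ± 0.10 SE and 0.76 ± 0.08 SE. The higher member was Farsa, at 0.17, whose call was lost in 5 of the 6 fits without 1 BSA or CTSD library (BSA replicate 1 or 2, or any CTSD replicate), after quantile normalization and with the length trend removed.

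The list of genes that the stress factor ATF4 is known to control centred on amino acid supply. It also held Atf4 itself, Chac1, Sesn2, Ddit3, Ddit4, Cebpb and Vldlr. Of its 17 tested members 9 were lower (52.9%) and none higher, against 16.3% each way over all genes. Their median was -0.29, and for AGEs minus BSA it was -0.36. Slc38a2, a transporter of neutral amino acids, had 57.2, 57.8 and 55.2 FPKM with BSA, 28.0, 24.3 and 35 with AGEs and 26.2, 22.9 and 28.1 with CTSD. Both groups with AGEs were well below BSA and overlapped each other. Slc38a2 was 2.21-fold lower (-1.12 ± 0.12 SE, limma adjusted p = 0.000149). Asns, asparagine synthetase, fell by 0.84 ± 0.12 SE and Slc7a11, the cystine transporter, by 0.68 ± 0.15 SE. Pycr1, an enzyme of proline synthesis, had 32.3, 26 and 29.2 FPKM with BSA, 12.2, 12.1 and 10.2 with AGEs and 18.2, 19.6 and 18 with CTSD. Its CTSD libraries lay between the other groups (CTSD minus BSA -0.62 ± 0.10 SE, limma adjusted p = 0.00149; CTSD minus AGEs 0.65 ± 0.10 SE, adjusted p = 0.000911). Atf4 itself had 442, 423 and 438 FPKM with BSA, 269, 274 and 265 with AGEs and 356, 345 and 362 with CTSD, a fall of 0.29 ± 0.04 SE from BSA (limma adjusted p = 0.00038).

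Promoters of Pycr1 (GRCr8, chr10:106420813-106421062, minus strand), Iars1 (chr17:15193653-15193902, minus strand) and Tars1 (chr2:62114803-62115052, minus strand) are shown. Pycr1 is of the amino acid list, and Iars1 and Tars1 are of the tRNA synthetase list. They were chosen because they fell and held the letters TGATGCAA, a known form of the element that ATF4 binds with a C/EBP partner. The capitals mark it, as TTGCATCA where it lies on the other strand.
Pycr1: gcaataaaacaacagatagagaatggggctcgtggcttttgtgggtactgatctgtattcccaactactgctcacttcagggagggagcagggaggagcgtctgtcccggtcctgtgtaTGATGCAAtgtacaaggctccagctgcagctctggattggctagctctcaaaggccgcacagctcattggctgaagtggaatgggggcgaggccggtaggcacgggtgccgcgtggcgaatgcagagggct
Iars1: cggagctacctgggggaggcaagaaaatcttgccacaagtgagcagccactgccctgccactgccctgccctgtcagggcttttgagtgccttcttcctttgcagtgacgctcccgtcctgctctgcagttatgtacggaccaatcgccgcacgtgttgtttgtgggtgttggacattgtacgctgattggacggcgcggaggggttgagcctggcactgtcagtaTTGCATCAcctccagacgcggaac
Tars1: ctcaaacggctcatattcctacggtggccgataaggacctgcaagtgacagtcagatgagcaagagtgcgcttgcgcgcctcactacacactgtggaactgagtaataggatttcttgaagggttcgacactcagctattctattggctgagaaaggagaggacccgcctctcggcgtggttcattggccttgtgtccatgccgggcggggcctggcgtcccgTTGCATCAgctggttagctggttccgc
The element was found in 5 of 17 tRNA synthetases with a RefSeq promoter (29.4%), in 2 of 17 genes of the amino acid list (11.8%) and in 0.561% of members. These shares were not tested. In Iars1 and Tars1 it lay 24 and 27 bases before the start, and in Pycr1 131 bases before it. Iars1, the isoleucine enzyme, had 23.7, 24.9 and 24.5 FPKM with BSA, 15.5, 12.1 and 16.3 with AGEs and 15.7, 15.1 and 13.5 with CTSD. Tars1, the threonine enzyme, had 54.0, 52.2 and 49.6 FPKM with BSA, 42.2, 41.7 and 44.5 with AGEs and 32, 32.5 and 34.1 with CTSD. For Iars1 the groups with AGEs overlapped below BSA, and for Tars1 all 3 groups were separate.

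**Figure D3:**
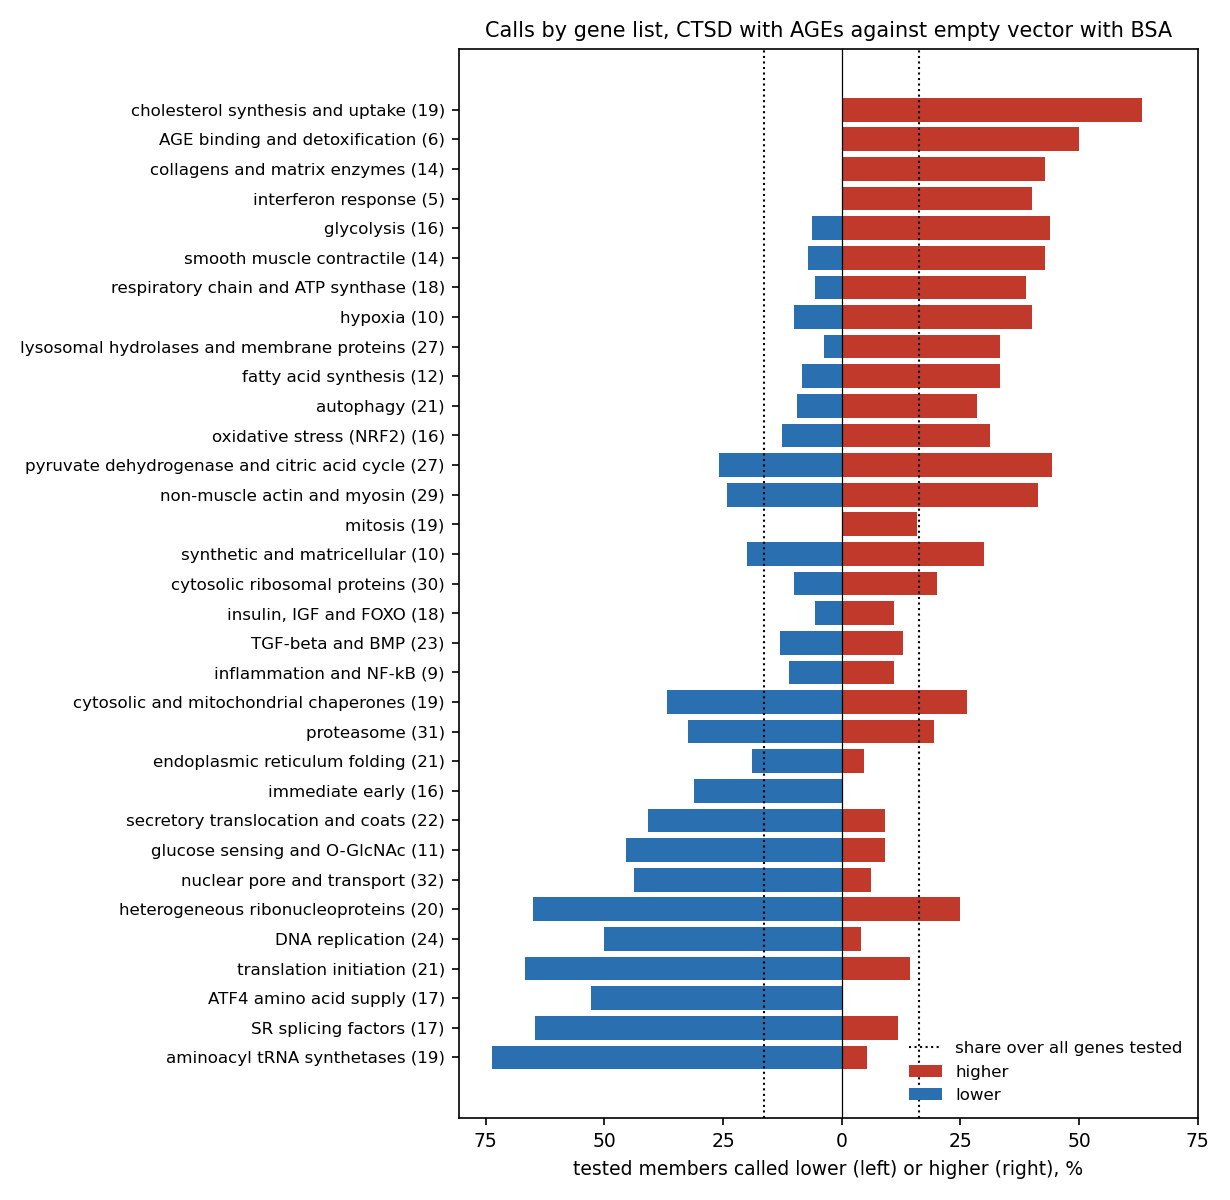
Percent of tested members (number in brackets) called higher (right, red) or lower (left, blue) in CTSD with AGEs against empty vector with BSA, for gene lists with 5 or more tested members. Dotted lines mark the shares over all genes tested, 16.3% on each side, and translation initiation, tRNA synthetases, SR factors and hnRNPs extend furthest to the left.

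Protein folding genes were mixed. Of 21 tested genes of folding in the endoplasmic reticulum 4 were lower (19%) and 1 was higher (4.76%), against 16.3% each way over all genes. Their median was 0.00, against -0.33 for AGEs minus BSA. Hspa5, the main chaperone there, had 1869, 1874 and 1723 FPKM with BSA, 1257, 1209 and 1343 with AGEs and 1430, 1401 and 1395 with CTSD (CTSD minus BSA -0.37 ± 0.05 SE, limma adjusted p = 0.000366). Hsp90b1 and Canx, also chaperones of that compartment, fell by 0.38 ± 0.08 SE and 0.35 ± 0.07 SE. The higher call was Xbp1, which encodes a regulator of the unfolded protein response, at 0.27 ± 0.08 SE (limma adjusted p = 0.0234), which was lost without BSA replicate 2 or 3 and without CTSD replicate 2 or 3. The count of 1 higher gene became 0 without BSA replicate 3 or CTSD replicate 3 and 2 without AGEs replicate 3, at a mean of at least 5 FPKM, after quantile normalization, with voom on fragments or with the length trend removed.

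Of 19 tested chaperones of cytosol and mitochondria, 7 fell (36.8%) and 5 rose (26.3%), against 16.3% each way over all genes. Their median was 0.01. Hspa8, the constitutive Hsc70 chaperone that also carries proteins to lysosomes, had 834, 809 and 786 FPKM with BSA, 1132, 1045 and 1083 with AGEs and 463, 316 and 327 with CTSD. The groups were separate, with AGEs highest and CTSD lowest, and CTSD replicate 1 stood above the other CTSD libraries. Hspa8 was 2.20-fold lower than in BSA (-1.15 ± 0.12 SE, limma adjusted p = 0.0001). Dnaja1, a co-chaperone of Hsc70, fell by 0.73 ± 0.06 SE and Hspa9, a mitochondrial Hsp70, by 0.49 ± 0.05 SE. Hspb1, a small heat shock protein, rose by 0.49 ± 0.06 SE, with 249, 231 and 248 FPKM in BSA and 358, 317 and 347 in CTSD libraries.

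Secretory translocation and coat proteins had 9 of 22 lower (40.9%) and 2 higher (9.09%), against 16.3% each way over all genes. Their median was -0.18. Sec63, of the translocon, and Sec23a and Copb1, of vesicle coats, fell by 0.67 ± 0.16 SE, 0.58 ± 0.14 SE and 0.55 ± 0.09 SE. Cope, also of the COPI coat, rose by 0.50 ± 0.08 SE. The 2 higher calls became 1 without BSA replicate 3 or any 1 of the CTSD replicates, and 1 with the replicate block.

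Lysosomal genes other than Ctsd had small differences. Of 27 tested hydrolases, membrane proteins and proton pump subunits, 9 were higher (33.3%) and 1 was lower (3.7%), with a median of 0.09. Over all genes the shares were 16.3% each way. Lamp1, a membrane glycoprotein of the lysosome, had 229, 236 and 214 FPKM with BSA and 295, 295 and 267 with CTSD (0.33 ± 0.05 SE, limma adjusted p = 0.00135). Lamp2, its relative that takes part in chaperone-mediated autophagy, fell by 0.41 ± 0.09 SE. Smpd1, acid sphingomyelinase, rose by 0.39 ± 0.09 SE. Hexa, a hexosaminidase subunit, was called at 0.39 ± 0.13 SE (limma adjusted p = 0.04) and lost the call in 7 of 18 alternatives, 6 of them without BSA replicate 1 or 2, AGEs replicate 1 or any 1 of the CTSD replicates. Ctsb, cathepsin B, was not called at 0.19 ± 0.17 SE. The 1 lower call became 2 without BSA replicate 3 and 3 without AGEs replicate 2 or 3, and 2 to 4 with the 2 groups alone, voom on fragments, median-of-ratios scaling, a pseudocount of 0.1 or a minimum mean of 5 FPKM.

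Autophagy genes had 6 of 21 higher (28.6%) and 2 lower (9.52%), against 16.3% each way over all genes. Map1lc3a and Gabarapl1, ubiquitin-like proteins of the autophagosome membrane, rose by 0.53 ± 0.10 SE and 0.42 ± 0.07 SE, and Atg13, of the initiating kinase complex, by 0.37 ± 0.06 SE. Atg16l1, which directs lipid attachment, was called lower at -0.51 ± 0.17 SE (limma adjusted p = 0.0436), a call lost in 12 of 17 alternatives, 7 of them without any 1 of the BSA replicates, AGEs replicate 1 or 2 or CTSD replicate 1 or 3. The 2 lower calls became 0 without BSA replicate 3 or CTSD replicate 3 and 1 without BSA replicate 1 or 2 or AGEs replicate 1 or 2, and 1 with quantile normalization, the 2 groups alone, a minimum mean of 5 FPKM, no filter or a pseudocount of 0.1.

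Proteasome genes had 10 of 31 lower (32.3%) and 6 higher (19.4%), against 16.3% each way over all genes. Psmc6, a base ATPase, had 102, 95.3 and 109 FPKM with BSA and 59.8, 59.9 and 66.6 with CTSD (-0.71 ± 0.09 SE, limma adjusted p = 0.000319). Psmd1 and Psmd14, lid or base subunits of the regulatory particle, fell by 0.44 ± 0.06 SE and 0.38 ± 0.05 SE. Psma3l, a copy of a core subunit gene, fell by 0.37 ± 0.04 SE, a value that reads shared with its near-identical partner could affect.

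The study's title names glycolysis. In this comparison 7 of 16 tested glycolytic genes and transporters were higher (43.8%) and 1 was lower (6.25%). Their median was 0.15, and over all genes 16.3% were called each way. Aldoa, the aldolase, had 1781, 1802 and 1903 FPKM with BSA, 2305, 2374 and 2147 with AGEs and 2498, 2484 and 2582 with CTSD. All 3 groups were separate, with CTSD highest. Aldoa rose by 0.46 ± 0.04 SE (limma adjusted p = 7.71e-05), Pgam1, a mutase of the payoff phase, by 0.51 ± 0.05 SE and Gpi, the glucose phosphate isomerase, by 0.41 ± 0.09 SE. Slc2a1, the glucose transporter GLUT1, had 94.4, 92.3 and 99.0 FPKM with BSA, 127, 129 and 130.1 with AGEs and 106, 114 and 107 with CTSD, so its CTSD libraries lay between the other groups (CTSD minus BSA 0.19 ± 0.05 SE, limma adjusted p = 0.0137). Slc16a1, the lactate transporter MCT1, was the member that fell, from 38.9, 37.8 and 33.6 FPKM to 18.8, 23.1 and 21.9 (-0.76 ± 0.09 SE, limma adjusted p = 0.000207). Ldha, which makes lactate, and Hk2, a hexokinase, were not called at -0.14 ± 0.10 SE and 0.10 ± 0.18 SE.

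Of 27 tested genes of pyruvate entry and the citric acid cycle, 12 were higher (44.4%) and 7 lower (25.9%). These shares stand against 16.3% each way over all genes. Pdk2, a kinase that switches pyruvate dehydrogenase off, had 52.0, 48.7 and 53.5 FPKM with BSA and 75.3, 74.5 and 73.1 with CTSD (0.52 ± 0.06 SE, limma adjusted p = 0.000214). Sucla2, a succinyl-CoA synthetase subunit, fell by 0.75 ± 0.09 SE. Pdhx and Dld, components of the pyruvate dehydrogenase complex, were called at -0.57 ± 0.16 SE and -0.51 ± 0.14 SE. The call of Pdhx was lost without BSA replicate 3 or CTSD replicate 3, and that of Dld without BSA replicate 3 or CTSD replicate 1. The 7 lower calls became 4 without BSA replicate 3 or CTSD replicate 3.

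The respiratory chain and ATP synthase had 7 of 18 tested nuclear genes higher (38.9%) and 1 lower (5.56%). Their median was 0.21, and over all genes 16.3% were called each way. Ndufv2, a core subunit of complex I, had 10.4, 14.1 and 12.3 FPKM with BSA and 28.2, 21.8 and 23.8 with CTSD (0.95 ± 0.14 SE, limma adjusted p = 0.000843). Ndufs3 rose by 0.56 ± 0.08 SE, while Ndufs1, of the same complex, fell by 0.44 ± 0.07 SE.

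Genes of DNA replication had 12 of 24 tested members lower (50%) and 1 higher (4.17%), against 16.3% each way over all genes. Their median was -0.32, and for AGEs minus BSA it was 0.01. Pola1, the polymerase that starts new strands, had 22.8, 19.1 and 26.2 FPKM with BSA, 12, 10.3 and 16.9 with AGEs and 10.9, 12.5 and 11.9 with CTSD. Both groups with AGEs were below all BSA libraries. Pola1 fell by 0.88 ± 0.17 SE (limma adjusted p = 0.00285). Mcm3, of the replicative helicase, fell by 0.68 ± 0.10 SE, Rrm2, of ribonucleotide reductase, by 0.57 ± 0.11 SE and Pole, the leading strand polymerase, by 0.52 ± 0.11 SE. The higher call was Pold1, and the count of 1 became 2 without AGEs replicate 3, with voom on fragments or with the length trend removed. Mitosis genes had 3 of 19 higher (15.8%, near the 16.3% over all genes) and none lower; 2 were lower without BSA replicate 2 and 1 with voom on fragments. Plk1, the polo kinase, rose by 0.54 ± 0.05 SE, Cdc20, an activator of the anaphase-promoting complex, by 0.45 ± 0.04 SE and Ube2c, its ubiquitin-conjugating partner, by 0.29 ± 0.04 SE. Lin9, of the complex that drives late cell cycle genes, had 6.65, 6.14 and 5.18 FPKM with BSA and 2.17, 1.79 and 2.21 with CTSD (-1.19 ± 0.13 SE, limma adjusted p = 0.000188).

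**Figure D4:**
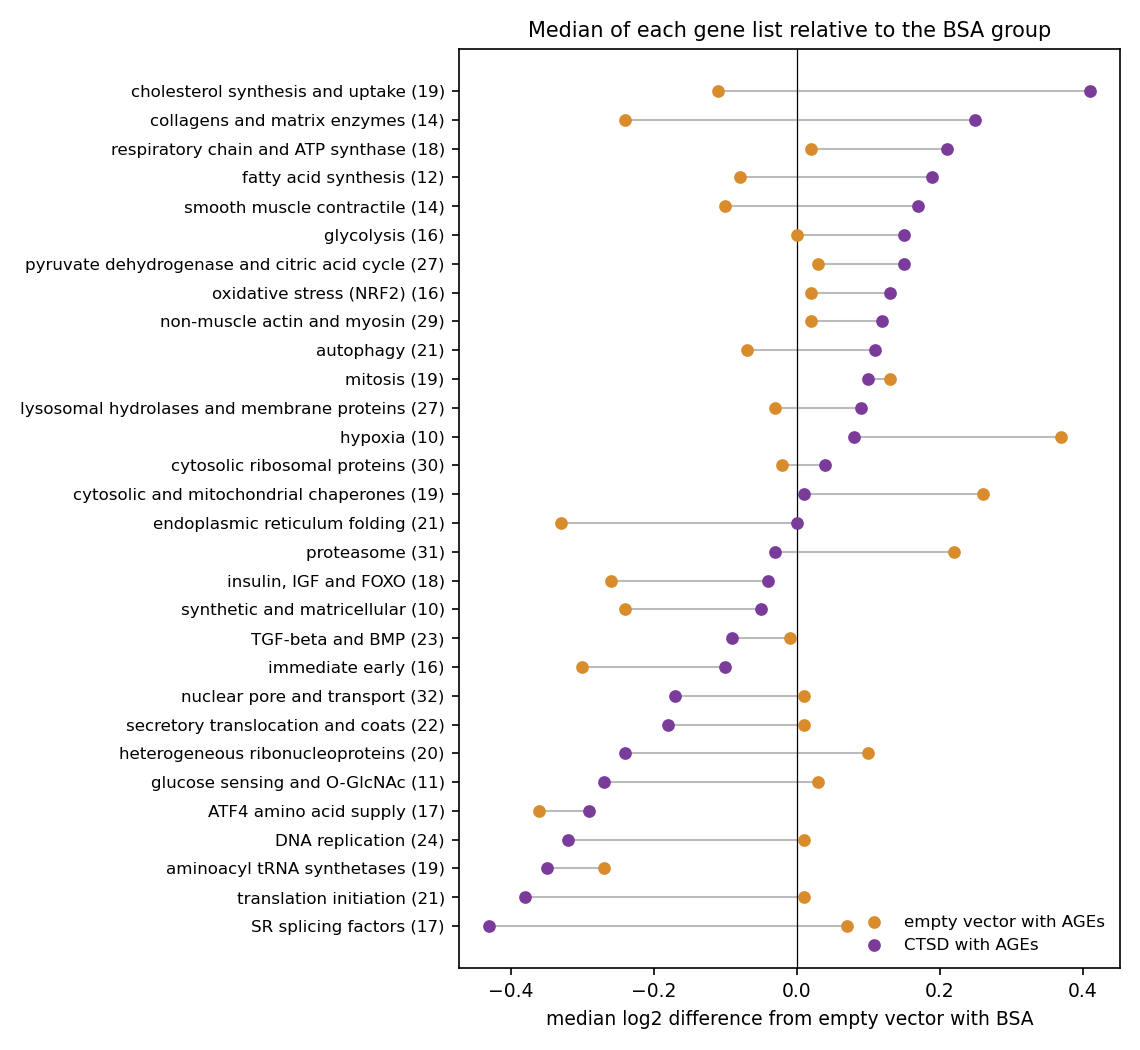
Median log2 difference from empty vector with BSA of each gene list with 10 or more tested members (number in brackets), for empty vector with AGEs (orange) and CTSD with AGEs (purple), which share the BSA libraries. Cholesterol synthesis is at 0.41 with CTSD and -0.11 without, SR splicing factors are at -0.43 and 0.07, and the ATF4 list is at -0.29 and -0.36.

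Immediate early genes had 5 of 16 lower (31.2%, against 16.3% over all genes) and none higher, apart from 1 higher without BSA replicate 2. Klf6, a zinc finger factor, had 43.1, 43.5 and 48.1 FPKM with BSA, 30.8, 30.1 and 35.8 with AGEs and 23.1, 20.2 and 21.9 with CTSD (-1.01 ± 0.09 SE, limma adjusted p = 4.92e-05). Egr2 and Jun fell by 0.59 ± 0.14 SE and 0.43 ± 0.06 SE, and Fos was called at -0.71 ± 0.23 SE, a call lost in 7 of 17 alternatives, 5 of them without BSA replicate 1 or 3 or any 1 of the CTSD replicates. Hypoxia genes had 4 of 10 higher (40%) and 1 lower (10%), against 16.3% each way over all genes. Their median was 0.08, against 0.37 for AGEs minus BSA. Adm, the vasodilator peptide adrenomedullin, rose by 0.76 ± 0.13 SE and Egln1, an oxygen-sensing hydroxylase, by 0.63 ± 0.08 SE. Hif1a fell by 0.41 ± 0.10 SE, Ndrg1 was called at 0.50 ± 0.13 SE except without CTSD replicate 3, and the 4 higher calls became 2 without that library.

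Of 16 oxidative stress genes linked to NRF2, 5 were higher (31.2%) and 2 lower (12.5%), against 16.3% each way over all genes. Gclc, the rate-limiting subunit of glutathione synthesis, fell by 0.85 ± 0.11 SE, from 12, 13.1 and 13.4 FPKM to 6.40, 7.54 and 6.17. Cat, catalase, fell by 0.33 ± 0.08 SE, Prdx1, a peroxiredoxin, rose by 0.45 ± 0.07 SE and Tkt, transketolase, by 0.31 ± 0.05 SE. Genes of AGE binding and detoxification had 3 of 6 called higher (50%, against 16.3% over all genes) and none called lower. The member with the lowest difference, at -0.45, was not called. Called higher were Hagh, of the glyoxalase system, at 0.46 ± 0.11 SE and Scarb1, a scavenger receptor, at 0.46 ± 0.07 SE. So was Ddost, a subunit of the oligosaccharyltransferase also described as an AGE receptor, at 0.39 ± 0.08 SE. The TGF-beta and BMP list had 3 of 23 higher and 3 lower, 13% each way, which is no more than the 16.3% each way over all genes. Tgfb1, the ligand, had 20.1, 18.2 and 18.3 FPKM with BSA and 26.6, 29.0 and 32.1 with CTSD (0.60 ± 0.10 SE, limma adjusted p = 0.00146). Smad3, a signal transducer, rose by 0.42 ± 0.09 SE, Bmpr1a, a receptor, fell by 0.74 ± 0.16 SE, and the ligand Bmp6 was called at 0.64 ± 0.22 SE but not in 12 of 17 alternatives, 7 of them without BSA replicate 1 or 2, any 1 of the AGEs replicates or CTSD replicate 1 or 3.

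In the interferon list 2 of 5 were higher (40%, against 16.3% over all genes). They were Psmb8, an immunoproteasome subunit, at 0.93 ± 0.16 SE and Irf1, a transcription factor, at 0.51 ± 0.09 SE. Of 9 inflammatory and NF-kB genes 1 was called lower and 1 higher, 11.1% each way against 16.3% over all genes. Nfkbiz was the lower at -0.62 ± 0.17 SE and Lif, a cytokine, the higher at 0.57 ± 0.16 SE. Nfkbiz had 1.38, 1.19 and 1.54 FPKM with BSA and under 1 FPKM in the other 6 libraries, so it passed the filter through the BSA group where it was high, and its call carries no weight as a fall. That call was lost without BSA replicate 1 or 3 or CTSD replicate 1 or 2, and that of Lif without BSA replicate 1 or 2 or CTSD replicate 1 or 3. Of 18 insulin, IGF and FOXO genes 2 were higher and 1 lower, so 16.7% were called, fewer than the 32.6% over all genes. Akt2 rose by 0.25 ± 0.06 SE, Igfbp4 was called higher at 0.29 ± 0.08 SE and Pik3ca, a lipid kinase subunit, lower at -0.55 ± 0.16 SE. Igfbp4 was not called without BSA replicate 2 or CTSD replicate 1 or 3, nor Pik3ca without BSA replicate 1 or 3 or CTSD replicate 2 or 3 or with no filter. Osteogenic and chondrogenic genes had 1 of 3 tested called (33.3%, against 32.6% over all genes). It was Slc20a1, a phosphate transporter, which fell by 0.31 ± 0.05 SE.

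Markers of other cell types were checked in the same table, since in bulk RNA fewer cells of a type and less RNA per cell cannot be told apart. The 8 adventitial fibroblast markers summed to 10.8 to 12.7 FPKM with BSA and 18.6 to 21 FPKM with CTSD. Of the 8, 2 were tested, and Lum and Clec3b were at 0 in every library. Gsn, the actin-severing protein gelsolin, was called at 0.76 ± 0.12 SE. Pdgfra, the other tested marker, had 1.71 to 2.57 FPKM over all libraries and was not called. The 6 adipocyte markers summed to 245 to 262 FPKM with BSA and 390 to 415 with CTSD, nearly all of it Pparg. The 7 Schwann and neural markers summed to 259 to 267 FPKM with BSA and 192 to 206 with CTSD, nearly all of it Ncam1, an adhesion molecule, which fell by 0.41 ± 0.05 SE, while Sox10, S100b and Gfap were at 0. The 9 macrophage markers summed to 0.152 to 1.61 FPKM with BSA and 0.924 to 2.11 with CTSD, with Cd68 at 0.26 ± 0.33 SE and not called. As stated above, a 0 in this table does not show absence. The part of these markers in the contractile and matrix values was not tested.

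Among the other genes with the largest rises, Tgm2, a transglutaminase that cross-links proteins, had 13.3, 13.3 and 14 FPKM with BSA, 16.9, 17.6 and 18 with AGEs and 26.2, 28.5 and 27.5 with CTSD (0.97 ± 0.07 SE, limma adjusted p = 2.65e-05). Snai1, the repressor Snail, had 3.12, 4.54 and 2.18 FPKM with BSA and 9.95, 5.62 and 6.42 with CTSD (0.96 ± 0.23 SE, limma adjusted p = 0.00981). Cnih2, a cornichon protein of receptor export, rose by 1.19 ± 0.13 SE, Vstm2l by 1.25 ± 0.26 SE and Hoxb8, a homeobox factor, by 0.98 ± 0.24 SE. LOC102549061 rose by 1.06 ± 0.19 SE, and AABR07068955.1 was called at 1.09 ± 0.36 SE, a call lost in 7 of 18 alternatives, 5 of them without BSA replicate 1, 2 or 3 or CTSD replicate 1 or 2.

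Among the other large falls, Htr1b, a serotonin receptor, had 8.35, 7.90 and 4.19 FPKM with BSA, 2.89, 2.49 and 4.62 with AGEs and 1.61, 2.46 and 1.28 with CTSD. The CTSD libraries were all below the BSA libraries. Htr1b fell by 1.46 ± 0.27 SE (limma adjusted p = 0.00244). Clock, a transcription factor of the circadian oscillator, had 5.85, 4.71 and 7.14 FPKM with BSA and 2.36, 2.15 and 1.68 with CTSD (-1.16 ± 0.26 SE, limma adjusted p = 0.0068). AY172581.24, a locus of the mitochondrial genome at deposited positions 1094 to 2664, fell by 1.30 ± 0.13 SE in libraries made from poly-A RNA. AABR07044925.1 fell by 1.14 ± 0.17 SE, and AABR07029573.1 was called at -1.16 ± 0.34 SE, a call lost in 6 of 18 alternatives, 4 of them without BSA replicate 1 or 2 or CTSD replicate 2 or 3.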

How the data were processed

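The deposited table gives FPKM per gene as computed by the authors, with rat Ensembl identifiers, and per the labels the libraries were poly-T selected. The submitters' processing notes name mm10, a mouse build, so deposited positions carry no build, while the sources used here give no aligner or annotation. FPKM times gene length came within 0.1 of whole fragments for 99.39% to 99.58% of values under 200 fragments, which gave the depths, and 3 fragments in a 1-kilobase gene are 0.562 to 0.668 FPKM. Members were tested as log2(FPKM + 1), which understates changes of low genes, with limma 3.58.1 (R 4.3.3), variance trend, 1 mean per group, two-sided, over 8532 genes.

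The members and the 40 gene lists (869 entries, 843 matched) were chosen with earlier results of these data known. The text names Ctsd, Ogt, Txnip and Acta2, the 12 largest called rises and falls with a symbol, a model of at least 200 bases, at least 5 FPKM on average where it was higher and no overlap between groups, and up to 4 called genes per list (in a list with none called, the 2 tested members of highest mean). A few genes that the rule or the lists include are not reported here. Other names were chosen after their values were seen. Promoters are RefSeq's (GRCr8), matched by symbol for 6242 of 8512 symbols (73.3%). The scripts were tested on simulated data. Alternatives are in the closing section.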

Additional observations from a re-analysis of the deposited data

How the results depend on the processing

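The number of genes called stayed within 1.5 times of 2782 in every alternative that changed only scaling, filter, model or library. It was 2746 with a pseudocount of 0.1, 2445 with no filter, 2639 at a mean of at least 5 FPKM, 2760 with median-of-ratios scaling, 2788 with quantile normalization, 2993 with the 2 groups alone, 2992 with voom on fragments and 2796 with the length trend removed. A fold of at least 1.5 lowered it to 673, with 190 higher and 483 lower. Leaving out 1 library gave 2108 to 3090 called genes, 1048 to 1499 higher and 1029 to 1591 lower. The share of calls that were higher ranged from 48.2% to 52.3%. The difference of Ctsd ranged from 3.77 to 3.94.

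Replicate numbers did not pair the samples: residuals of same-numbered CTSD and BSA libraries correlated at 0.0597, 0.00461 and 0.00303, and only the libraries numbered 1 correlated best with their own number. With the replicate block 2773 genes were called, 1358 higher and 1415 lower.

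Of 146 named genes that were called, 124 kept the call in every alternative and 22 lost it in at least 1. Cd68, which was not called, ranged from -0.08 without BSA replicate 1, a change of sign, to 0.51 without BSA replicate 3. Of 1440 counts of list members under an alternative, 1351 stayed within 1.5 times. Precision is limited by 3 libraries a group and 4492760 to 5342078 fragments each, so genes near 1 FPKM rest on few fragments.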

Other observations

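Ppp2ca, the catalytic subunit of a protein phosphatase, was chosen after its values were seen. It had 176, 103 and 183 FPKM with BSA, 109, 117 and 114 with AGEs and 81.8, 90.8 and 7.75 with CTSD. The CTSD libraries lay below the BSA libraries without overlap, yet the difference of -1.89 ± 0.71 SE was not called (limma adjusted p = 0.0651), with CTSD replicate 3 far below the other CTSD libraries.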
